A study of Mus musculus with 26 samples.

Results

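The 49 genes described here are imprinted genes of the mouse, that is, genes expressed only or mainly from the maternal or the paternal copy, in some cases in certain tissues only. Their promoters were read in chromatin maps of mouse embryonic stem cells (ESCs). A gene's promoter was represented, in each table of regions, by the region with most overlap with 1.5 kb either side of one of its RefSeq start sites. Of the 49 members, 42 had a region in the tables of E14 cells and 43 had one in any table, beside 17706 of all 26180 genes in the tables of E14 cells. Impact had regions only in the tables of the clones, and Ddc, Mirg, Rtl1, Rian, Slc22a2 and Peg13 had none. The 42 members fell on 40 distinct regions, since Peg3 and Usp29 share 1 bidirectional promoter region and Peg10 and Sgce share another.

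The ChIPs compared were these. Total H3K4me3 and total H3K27me3 are single ChIPs from an aliquot of the first immunoprecipitation, and the reChIPs re-immunoprecipitate that material with the other antibody: K4-K27 is H3K4me3 first and H3K27me3 second, and K27-K4 is the reverse. Per the study these in-line totals were noisier, likely because little material went into them, and few peaks could be called from them. How much this adds to differences of reChIP and total was not tested. E14 is an ESC line profiled in replicates 1 and 2. The clones are WT (clones 57 and 58) or double knockout for Dppa2 and Dppa4 (DKO, clones 43 and 53), so that each genotype is represented by 2 clonal lines. E14 cells and clones were all ESCs grown in serum and LIF. An IgG–IgG reChIP was made once for E14 cells and once for WT clone 57, which also stands as the background for the DKO clones. Between 6741245 and 47903464 reads stood behind a library's values, which are log2 RPM (reads scaled to library size) per kb of region; values below are given as the log2 enrichment over the IgG–IgG of the same set, in the order replicate 1 and 2, clone 57 and 58, or clone 43 and 53. The antibody to H3K4me3 has been reported to bind H3K4me2 as well. Reads were not assigned to parental alleles.

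Imprinted genes inherit DNA methylation on 1 parental copy of a germline differentially methylated region (gDMR), which often is the promoter of the imprinted gene or of a long non-coding RNA that silences its neighbours in cis. The zinc finger protein ZFP57 binds the methylated hexamer TGCCGC and keeps that methylation through early development. The unmethylated copy of such a promoter commonly carries H3K4me3, and silent copies of imprinted genes can carry H3K27me3 laid down by Polycomb repressive complex 2. A total ChIP adds both copies together, so that a promoter with H3K4me3 on 1 copy and H3K27me3 on the other looks in the totals like a bivalent promoter, at which both marks lie on the same nucleosome, and a reChIP tests for marks on the same fragment. DPPA2 and DPPA4 are chromatin proteins of early embryos and ESCs that are needed for bivalent chromatin at a subset of promoters.

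The promoters of 7 members are shown from 250 bases before to 50 bases after the start site, from RefSeq on GRCm38.p6, 5′ to 3′ on the gene's own strand. Slc22a3 (chr17:12507655-12507954, minus strand), Nap1l5 (chr6:58907077-58907376, minus), Nnat (chr2:157559828-157560127, plus) and Airn (chr17:12741061-12741360, plus) were called lower in DKO clones. Plagl1 (chr10:13090582-13090881, plus) and Kcnq1ot1 (chr7:143296498-143296797, minus) are gDMR promoters with and without total H3K27me3 above IgG–IgG in the clones, where neither has a total H3K27me3 region. Dlk1 (chr12:109452573-109452872, plus) is a promoter with regions in both totals in every set. Capitals mark the hexamer TGCCGC or, where the match is on the other strand, its complement GCGGCA.
Slc22a3: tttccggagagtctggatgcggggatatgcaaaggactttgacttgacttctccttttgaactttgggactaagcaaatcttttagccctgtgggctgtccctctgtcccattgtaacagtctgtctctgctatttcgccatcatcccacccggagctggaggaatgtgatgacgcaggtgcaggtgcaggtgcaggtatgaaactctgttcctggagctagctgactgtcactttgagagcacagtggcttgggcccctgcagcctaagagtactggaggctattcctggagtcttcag
Nap1l5: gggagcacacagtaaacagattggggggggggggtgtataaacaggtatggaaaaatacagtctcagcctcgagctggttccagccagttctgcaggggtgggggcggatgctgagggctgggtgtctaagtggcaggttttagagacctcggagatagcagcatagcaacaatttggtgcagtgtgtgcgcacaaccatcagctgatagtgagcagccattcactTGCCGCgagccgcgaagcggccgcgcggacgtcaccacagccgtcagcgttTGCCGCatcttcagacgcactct
Nnat: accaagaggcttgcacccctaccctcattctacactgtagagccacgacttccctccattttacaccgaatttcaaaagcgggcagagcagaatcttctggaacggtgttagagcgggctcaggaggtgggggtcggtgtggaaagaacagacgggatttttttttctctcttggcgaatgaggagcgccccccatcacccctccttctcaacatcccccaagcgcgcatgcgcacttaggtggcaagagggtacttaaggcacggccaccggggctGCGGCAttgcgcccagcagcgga
Airn: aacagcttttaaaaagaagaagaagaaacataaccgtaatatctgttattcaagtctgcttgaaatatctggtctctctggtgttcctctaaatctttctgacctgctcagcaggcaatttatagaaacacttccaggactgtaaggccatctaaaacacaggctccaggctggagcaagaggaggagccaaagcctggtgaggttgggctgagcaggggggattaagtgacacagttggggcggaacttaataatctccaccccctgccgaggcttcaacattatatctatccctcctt
Plagl1: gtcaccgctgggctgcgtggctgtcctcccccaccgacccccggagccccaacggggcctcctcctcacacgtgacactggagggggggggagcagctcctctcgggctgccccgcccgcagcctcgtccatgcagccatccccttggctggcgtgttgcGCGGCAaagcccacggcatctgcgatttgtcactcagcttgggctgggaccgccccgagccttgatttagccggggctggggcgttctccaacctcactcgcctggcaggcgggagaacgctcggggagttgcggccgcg
Kcnq1ot1: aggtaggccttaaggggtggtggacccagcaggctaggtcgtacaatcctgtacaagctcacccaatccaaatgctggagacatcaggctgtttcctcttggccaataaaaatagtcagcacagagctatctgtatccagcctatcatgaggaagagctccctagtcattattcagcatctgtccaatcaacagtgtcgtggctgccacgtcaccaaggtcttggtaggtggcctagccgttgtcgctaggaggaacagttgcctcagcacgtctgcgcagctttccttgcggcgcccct
Dlk1: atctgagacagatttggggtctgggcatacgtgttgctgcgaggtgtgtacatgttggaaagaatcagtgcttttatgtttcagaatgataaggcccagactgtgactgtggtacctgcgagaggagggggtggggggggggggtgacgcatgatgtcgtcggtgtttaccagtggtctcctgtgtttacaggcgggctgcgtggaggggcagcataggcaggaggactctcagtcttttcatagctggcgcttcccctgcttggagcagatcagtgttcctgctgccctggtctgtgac
TGCCGC, searched on both strands, was in 11.6% of 32851 promoter windows of this length from all genes. It was in 14 of 59 windows of members, in 13 of the 41 members that have a window, and in 5 of the 10 members with a window that are listed below as gDMR promoters. Nap1l5 has 2 matches, and Nnat and Plagl1 have 1 each. These matches are letters in a window of 300 bases, and a gDMR reaches beyond it. The windows of members held a median of 15 CpG dinucleotides beside 7 in all windows.

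Regions of the deposited tables were first counted by table. In E14 cells, total H3K4me3 regions covered 30 of the 49 members (61.2%, beside 53.2% of all genes), total H3K27me3 regions 14 (28.6% beside 12.1%), K4-K27 regions 36 (73.5% beside 58.7%) and K27-K4 regions 42 (85.7% beside 66.2%). In WT clones these tables covered 42 (85.7% beside 60.2%), 17 (34.7% beside 15.8%), 43 (87.8% beside 59.4%) and 29 members (59.2% beside 33.7%). In DKO clones they covered 38 (77.6% beside 56.1%), 15 (30.6% beside 17.6%), 41 (83.7% beside 57.8%) and 27 (55.1% beside 32.1%). With a window of 0.5 kb either side of the start sites, the E14 count for total H3K27me3 fell from 14 to 7 members (14.3%, beside 7.8% of all genes), and the clones had 15 in WT (30.6% beside 13.5%) and 13 in DKO (26.5% beside 15.3%). The shares are given as a description. Members with regions in both total tables, where separate alleles could give both marks, numbered 12 in E14 cells (24.5%, beside 7.69% of all genes), 16 in WT (32.7% beside 13.1%) and 14 in DKO clones (28.6% beside 12.8%). Each of them had a region in both reChIP tables of the same set, as did 99.9%, 97.1% and 95.3% of all genes with both totals. Some of the 12 were reached only by the edge of an H3K27me3 region, which overlapped the window by 1 base at Cdkn1c, 69 bases at Peg3 and 233 bases at Usp29, and with the window of 0.5 kb the E14 count was 6. Members with total H3K4me3 regions only numbered 18, 26 and 24. Of these, 13 of 18 had a region in both reChIP tables in E14 cells (72.2%, beside 89.6% of all such genes), 12 of 26 in WT (46.2% beside 34.7%) and 10 of 24 in DKO clones (41.7% beside 31.8%).

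Regions in both totals throughout E14, WT and DKO tables were found at 8 members: the growth regulators Cdkn1c and Grb10, the trophoblast factor Ascl2, Dio3 and Dlk1 of the Dlk1-Dio3 cluster, Gnas, Igf2r and Zim1. In E14 cells the total H3K27me3 regions of Cdkn1c, Igf2r and Zim1 did not reach the window of 0.5 kb, and that of Zim1 did not in the clones either. Regions only in total H3K4me3 throughout were found at 16 members, among them the non-coding RNAs Kcnq1ot1 and Meg3, Snrpn, Mest, the ubiquitin ligase gene Ube3a and the neighbours Tssc4 and Cd81. Igf2, the fetal growth factor, was the 1 member with a total H3K27me3 region and no total H3K4me3 region in all sets.

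**Figure D1:**
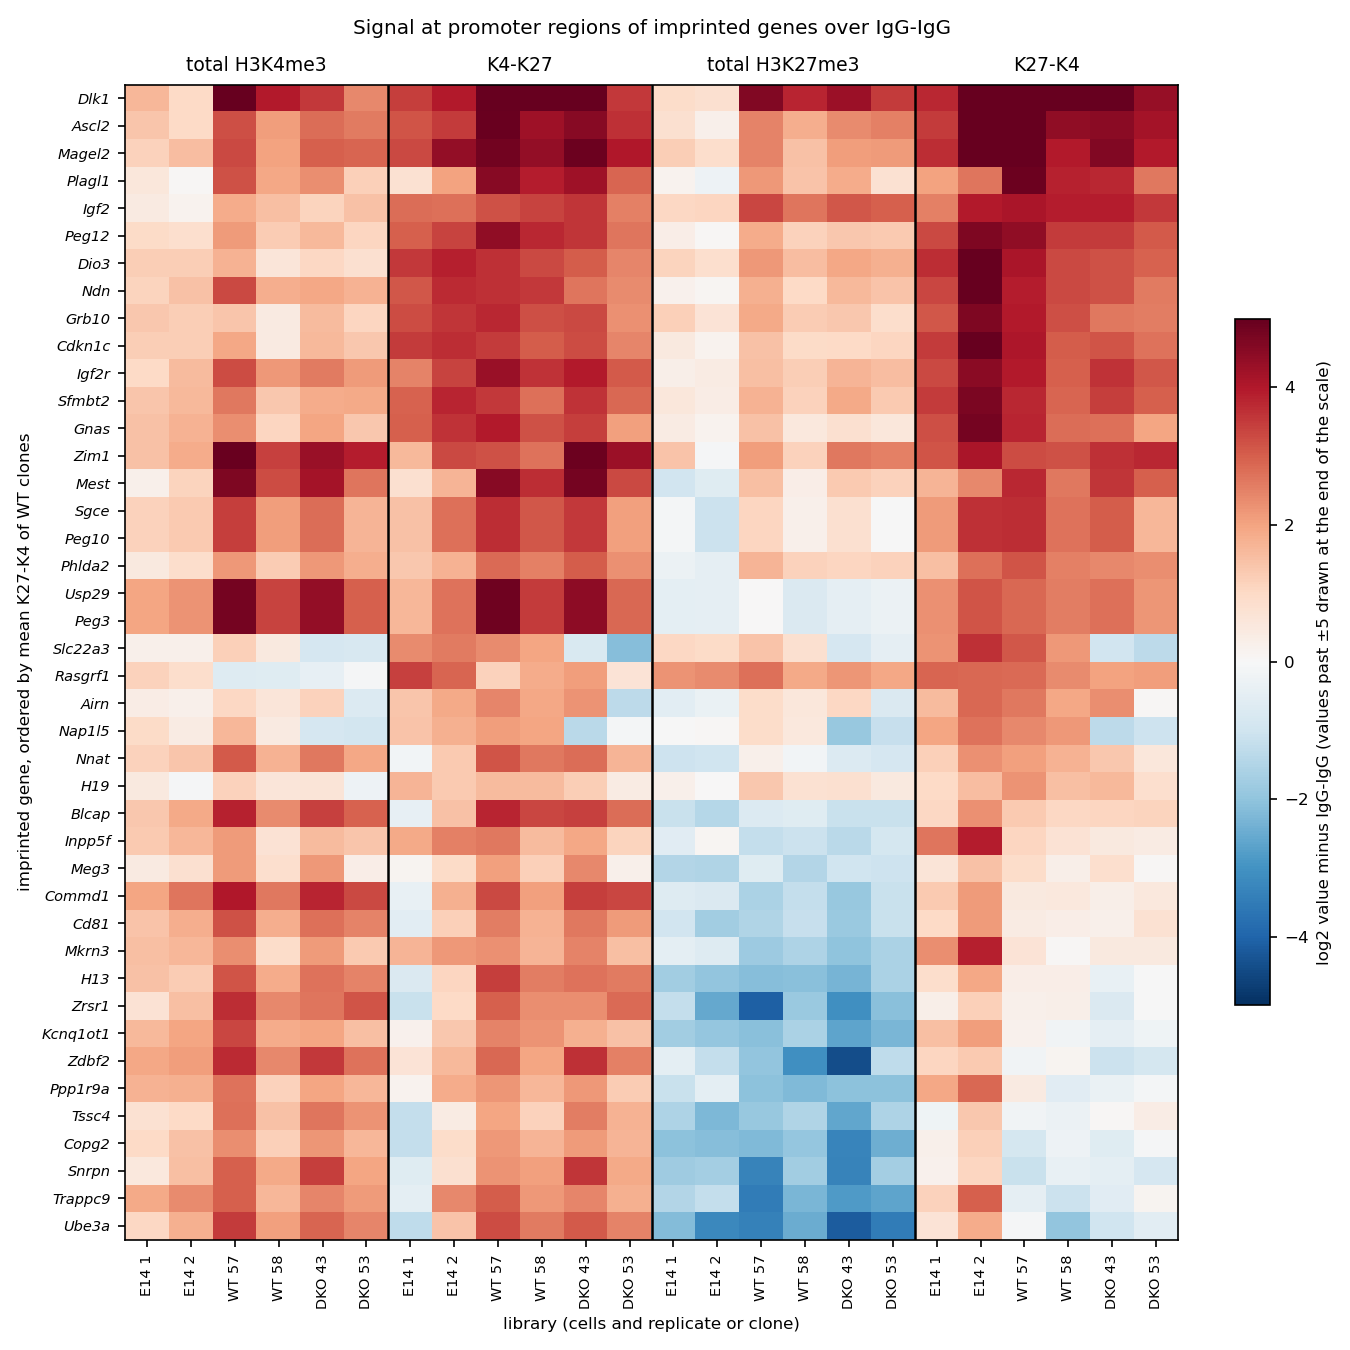
Log2 enrichment over IgG–IgG of the 42 members (rows) in each library (columns, grouped by cell set and ChIP), read at the region of the E14 tables, with values beyond the colour scale drawn at its end. Blocks of rows with high total H3K27me3 are also high in K27-K4, while total H3K4me3 is above IgG–IgG in both libraries at 41 of 42 members in E14 cells, 41 in WT and 37 in DKO clones.

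Read at the region kept from the E14 tables, total H3K4me3 was above IgG–IgG in both E14 libraries at 41 of 42 members and in both WT clones at 41. In DKO clones it was above at 37 and below in both clones at 3. Total H3K27me3 was above IgG–IgG in both libraries at 15 members in E14 cells, 23 in WT and 18 in DKO clones, and below it in both at 23, 16 and 21. K27-K4 was above IgG–IgG in both libraries at 41, 34 and 31 members, and K4-K27 at 31, 42 and 39. A region comes from the table of 1 ChIP, so enrichment in the ChIP that supplied it is not independent of its choice, and no test was made of it. How the regions of the deposited tables were called is not given in the sources used here.

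Peg12, Magel2 and Cdkn1c had the highest mean difference of reChIP and in-line total over all 6 pairings (the 2 orientations in E14, WT and DKO), at 2.44, 2.38 and 2.34. Peg12 and Magel2 are paternally expressed genes of the Prader-Willi region, and Cdkn1c, a maternally expressed inhibitor of the cell cycle, lies in the cluster that Kcnq1ot1 silences. At Cdkn1c (chr7:143458651-143462250, mm10) total H3K4me3 stood at 1.21 and 1.23 in E14 cells and total H3K27me3 at 0.49 and 0.17, while K4-K27 reached 3.51 and 3.67 and K27-K4 reached 3.51 and 5.15. The same order held in the clones, where K27-K4 was 4.03 and 3.03 in WT and 3.16 and 2.73 in DKO clones and total H3K27me3 was 1.47 and 0.94 in WT and 0.98 and 1.07 in DKO. Both reChIPs were thus above both totals in every replicate or clone at this promoter. At Magel2 (chr7:62376601-62377800) K4-K27 was 3.29 and 4.39 in E14 cells, 4.83 and 4.4 in WT and 4.89 and 3.99 in DKO clones, and K27-K4 was 3.71 and 5.53 in E14, 5.12 and 3.95 in WT and 4.62 and 3.97 in DKO. The totals at Magel2 were lower, at 1.17 and 1.54 for H3K4me3 and 1.22 and 0.88 for H3K27me3 in E14 cells. At the regions of the clones' own tables its means in WT clones were 2.69 (K4-K27), 2.75 (K27-K4), 0.94 (total H3K4me3) and 1.06 (total H3K27me3). Its K27-K4 ranked 20 of 29 members there, so that its place depends on the region read. Peg12 (chr7:62462401-62464650) had K27-K4 of 3.29 and 4.65 in E14, 4.42 and 3.51 in WT and 3.5 and 3.08 in DKO, beside total H3K27me3 of 0.33 and 0.07 in E14, 1.85 and 1.14 in WT and 1.33 and 1.32 in DKO. The reChIPs of these members did not overlap with their in-line totals within any set.

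Dio3, which encodes the deiodinase that inactivates thyroid hormone, and Igf2 also had each reChIP above its in-line total in every replicate or clone. Dio3 (chr12:110277151-110283150) had reChIP values of 3.52 and 3.91 (K4-K27) and 3.68 and 5.23 (K27-K4) in E14 cells, beside totals of 1.23 and 1.23 (H3K4me3) and 1.11 and 0.86 (H3K27me3). In WT clones its K4-K27 was 3.64 and 3.31 and in DKO clones 3.03 and 2.45. Igf2 (chr7:142653451-142658850), a region kept from the total H3K27me3 table, had little total H3K4me3 in E14 cells (0.44 and 0.17) and more in WT clones (1.84 and 1.49). Its total H3K27me3 was 1.05 and 1.07 in E14 cells, 3.35 and 2.69 in WT and 3.11 and 3.00 in DKO clones. Its K4-K27 of 2.78 and 2.75 in E14, 3.17 and 3.37 in WT and 3.56 and 2.51 in DKO was above its total H3K4me3 in every pairing. Dlk1, a ligand-like regulator of Notch signalling at the other end of the Dio3 cluster, was named after its values were seen and ranked first of 42 members in WT clones in all 4 ChIPs at its E14 region of 1350 bases (chr12:109452601-109453950), where the IgG–IgG library of clone 57 had 5 reads. The means there were 6.58 (K4-K27), 6.41 (K27-K4), 4.47 in total H3K4me3 and 4.22 in total H3K27me3. In E14 cells these means were 3.7, 4.6, 1.32 and 0.87. At the wider regions of the clones' own tables Dlk1 ranked 9 of 43 in K4-K27, 18 of 29 in K27-K4, 5 of 42 in total H3K4me3 and 7 of 18 in total H3K27me3 among members in WT clones, with means of 3.8, 2.8, 3.27 and 1.67. Its rank thus depends on the region read. How much the low IgG–IgG value at the E14 region adds to its rank was not tested.

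Other members, chosen after their values were seen, are given by means over the pair of libraries in the order E14, WT and DKO. Ascl2 had total H3K27me3 of 0.51, 2.15 and 2.44 and K27-K4 of 4.31, 4.85 and 4.34. Grb10 had 0.92, 1.58 and 1.12 and 3.89, 3.59 and 2.59, and Gnas 0.27, 1.01 and 0.67 and 4.02, 3.3 and 2.36. In these members K27-K4 exceeded total H3K27me3 in each set. Ndn, a paternally expressed gene beside Magel2, had total H3K27me3 of 0.16, 1.39 and 1.52 and K27-K4 of 4.25, 3.62 and 2.89, and Sfmbt2 had 0.46, 1.44 and 1.6 and 4.1, 3.34 and 3.21. Zim1, a zinc finger gene next to Peg3, had total H3K4me3 of 1.66, 4.19 and 4.13 and K4-K27 of 2.47, 2.94 and 4.59, so that in WT clones its reChIP was below its total. Rasgrf1 was read at a total H3K27me3 region (chr9:89905651-89908350) that overlaps the promoter window by 76 bases and does not hold the start site. It had the highest total H3K27me3 of members in E14 cells there, with 2.31, 2.32 and 2.07 beside total H3K4me3 of 1.03, -0.62 and -0.24 and K27-K4 of 2.9, 2.59 and 2.04. At the regions of the clones' own tables, which span the start site, its means in WT clones were 1.31 in total H3K4me3, 1.56 in total H3K27me3 and 2.82 in K27-K4, so that the negative total H3K4me3 and the small gap between K27-K4 and total depend on the region read. Igf2r had K4-K27 of 2.92, 3.96 and 3.52 and Phlda2, a growth inhibitor of the placenta in the Kcnq1ot1 domain, 1.54, 2.69 and 2.66. Ube3a, silenced on the paternal copy in neurons, had total H3K4me3 of 1.41, 2.77 and 2.66, total H3K27me3 of -2.71, -2.94 and -3.83 and K27-K4 of 1.28, -1.02 and -0.77. Meg3, the maternally expressed non-coding RNA of the Dlk1-Dio3 cluster, had K27-K4 of 1.06, 0.6 and 0.44 beside 4.6, 6.41 and 5.01 at Dlk1.

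Commd1, Tssc4 and Cd81 had the lowest mean reChIP minus total, at 0.64, 0.68 and 0.79. Commd1 is a copper metabolism gene that hosts Zrsr1 in an intron, and Tssc4 and Cd81 are neighbours in the Kcnq1 cluster. Commd1 (chr11:22980001-22983450) had total H3K4me3 of 1.98 and 2.68 in E14 cells, 3.99 and 2.62 in WT and 3.79 and 3.3 in DKO clones. Its total H3K27me3 was below IgG–IgG in all 6 libraries, at -0.66 and -0.73 in E14, -1.57 and -1.19 in WT and -1.88 and -1.12 in DKO. Its K4-K27 was -0.35 and 1.79 in E14 cells, 3.29 and 2.04 in WT and 3.44 and 3.35 in DKO clones, while K27-K4 in the clones was 0.5 and 0.54 in WT and 0.29 and 0.54 in DKO. Commd1 thus had high K4-K27 in the clones without total H3K27me3 above IgG–IgG. Tssc4 (chr7:143067451-143072550) showed the same order, with K4-K27 of 1.97 and 1.14 in WT clones beside total H3K27me3 of -1.89 and -1.49 and K27-K4 of -0.16 and -0.29. Cd81 (chr7:143051551-143058900) had K4-K27 of 2.58 and 1.75, total H3K27me3 of -1.51 and -1.17 and K27-K4 of 0.4 and 0.34 in those clones.

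The 16 members whose total H3K27me3 was below IgG–IgG in both WT clones showed this order together. They were Blcap, Cd81, Commd1, Copg2, H13, Inpp5f, Kcnq1ot1, Meg3, Mkrn3, Ppp1r9a, Snrpn, Trappc9, Tssc4, Ube3a, Zdbf2 and Zrsr1. In WT clones their K4-K27 means ran from 1.55 to 3.57 with a median of 2.26, and their K27-K4 means from -1.02 to 1.17 with a median of 0.15. The other 26 members had medians of 3.44 for K4-K27 and 3.26 for K27-K4. In DKO clones the 16 members had a median of 2.26 for K4-K27 and -0.22 for K27-K4, and in E14 cells 0.53 and 1.49. The K4-K27 reChIP of the clones was therefore enriched at these promoters while K27-K4 stood near IgG–IgG, and in E14 cells K27-K4 had the higher median of the reChIPs. Promoters of 8 ESC marker genes showed the same order, with median K4-K27 of 2.06 and K27-K4 of -0.24 in WT clones. Genes of imprint maintenance had 2.09 and 0.04 there, so the order is not particular to imprinted genes. The study holds that peaks seen in 1 orientation only likely come from carry-over of the first immunoprecipitation, which was not tested here. The 16 members were grouped by values of WT clones, so the split is a description without a test.

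As gDMR promoters 14 members were listed: Airn, Impact, Kcnq1ot1, Mest, Nap1l5, Nnat, Peg10, Peg13, Peg3, Plagl1, Sgce, Snrpn, Usp29 and Zrsr1. All but Impact and Peg13, 12 in all, had an E14 region. Positions of gDMRs were not in the data, so the list was made by hand and may leave out members with a gDMR at a promoter. The region kept for Nnat (chr2:157557901-157568250), from a reChIP table, also spans the start of Blcap, so its E14-table values add both promoters. All 12 had total H3K4me3 above IgG–IgG in both E14 libraries and in both WT clones, and none had total H3K27me3 above it in both E14 libraries, with 10 below it in both. In DKO clones 10 of the 12 had total H3K4me3 above IgG–IgG in both and 1 below. Total H3K27me3 was above IgG–IgG in both at 6 of the 12 in WT and 2 in DKO clones, and below it in both at 3 and 7. K27-K4 was above IgG–IgG in both libraries at 12 in E14 cells, 10 in WT and 8 in DKO clones, and below it in both at 0, 1 and 4.

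Kcnq1ot1 (chr7:143293951-143296800) and Snrpn (chr7:60002551-60005400), a splicing gene whose promoter is the imprinting centre of the Prader-Willi region, were at the low end. Kcnq1ot1 had total H3K4me3 of 1.62 and 1.98 in E14 cells, 3.34 and 1.85 in WT and 1.97 and 1.49 in DKO clones, with total H3K27me3 of -1.73 and -1.93 in E14, -2.1 and -1.59 in WT and -2.64 and -2.27 in DKO. Its K27-K4 was 1.5 and 2.07 in E14 cells and close to IgG–IgG in the clones, at 0.21 and -0.17 in WT and -0.46 and -0.2 in DKO. Snrpn had K27-K4 of -1.12 and -0.38 in WT and -0.48 and -0.86 in DKO clones and K4-K27 of 2.23 and 2.05 in WT and 3.58 and 1.89 in DKO. The reChIP orientations thus differed at both promoters in the clones. Zrsr1 (chr11:22971601-22974750), a paternally expressed splicing factor gene, had total H3K4me3 of 3.67 and 2.41 and K27-K4 of 0.25 and 0.28 in WT clones.

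At the other end, Plagl1 (chr10:13089601-13092150), a growth-suppressing transcription factor, and the Peg10 and Sgce promoter (chr6:4745851-4749300) carried both reChIP signals in the clones. Plagl1 had total H3K27me3 of 0.16 and -0.27 in E14 cells, 2.16 and 1.41 in WT and 1.87 and 0.78 in DKO clones. Its K27-K4 was 2.00 and 2.69 in E14, 4.88 and 3.84 in WT and 3.78 and 2.64 in DKO, and its K4-K27 0.74 and 2.01 in E14, 4.56 and 3.91 in WT and 4.25 and 2.91 in DKO. Peg10, a gene derived from a retrotransposon and needed in the placenta, had K27-K4 of 2.14 and 3.63 in E14, 3.68 and 2.72 in WT and 3.02 and 1.67 in DKO at the region that Sgce shares. Clone 53 had the lower value of the DKO pair at both promoters in K27-K4 and K4-K27. Peg3 (chr7:6728701-6731250), a zinc finger gene that shares its promoter with Usp29, had high total H3K4me3 of 4.79 and 3.38 in WT clones, total H3K27me3 near IgG–IgG (0.03 and -0.73) and K27-K4 of 2.85 and 2.55. Mest (chr6:30736951-30739200), a hydrolase gene with 2 groups of start sites, had total H3K27me3 of -0.95 and -0.6 in E14 cells but 1.5 and 0.33 in WT clones, and K27-K4 of 1.71 and 2.41 in E14 and 3.76 and 2.64 in WT. Impact, on chromosome 18, had regions in the clones only and was read there, with total H3K4me3 of 3.71 and 2.2 in WT and 3.26 and 2.83 in DKO clones and K4-K27 of 2.81 and 2.03 in WT and 3.04 and 2.41 in DKO.

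Members with several groups of start sites did not always have like marks at each. Of the 6 start groups of Snrpn, 1 had a region in E14 tables. At Zdbf2, the kept region at chr1:63199651-63200850 had mean total H3K4me3 of 2.02 and total H3K27me3 of -0.83 in E14 cells, while the region at the other start site, chr1:63259351-63275400, had 0.45 and 0.76. At Grb10, an adaptor protein gene with tissue-specific imprinting, chr11:12035251-12038550 had mean total H3K4me3 of 1.28 and K4-K27 of 3.42 in E14 cells, and the region at the other start site, chr11:12019351-12033900, had 0.35 and 2.38. At Gnas, the gene for a G protein subunit, chr2:174325651-174331350 was kept, with total H3K27me3 of 0.27 in E14 cells, beside -0.32 at chr2:174282451-174303000, which spans the 2 start groups upstream. One start site of Commd1 lies at the Zrsr1 promoter region, counted as 1 of its 2 start groups. These wide regions average over more than a promoter, and no difference between start groups was tested.

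Rank correlations of the log2 RPM per kb values, without subtraction of IgG–IgG, were taken over the 40 distinct regions as a description. The points share the same libraries, depth and base composition within a set. K27-K4 followed total H3K27me3, with Spearman's rho of 0.805 in E14 cells, 0.943 in WT and 0.91 in DKO clones. As enrichment over IgG–IgG, where both values also share that library, these were 0.842, 0.929 and 0.918. K4-K27 followed total H3K27me3 in E14 cells (0.891, or 0.916 as enrichment) and less closely in the clones (0.452 in WT and 0.322 in DKO, or 0.523 and 0.502). With total H3K4me3, K4-K27 gave -0.357 in E14 cells, 0.419 in WT and 0.474 in DKO clones, or -0.0589, 0.498 and 0.665 as enrichment. The totals gave -0.577, -0.476 and -0.503 against each other, and -0.22, -0.174 and -0.12 as enrichment, so that the size of this relation depends on the scale. The reChIP orientations gave 0.945 in E14 cells and 0.608 and 0.57 in the clones. Whether these coefficients differ between the sets was not tested.

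**Figure D2:**
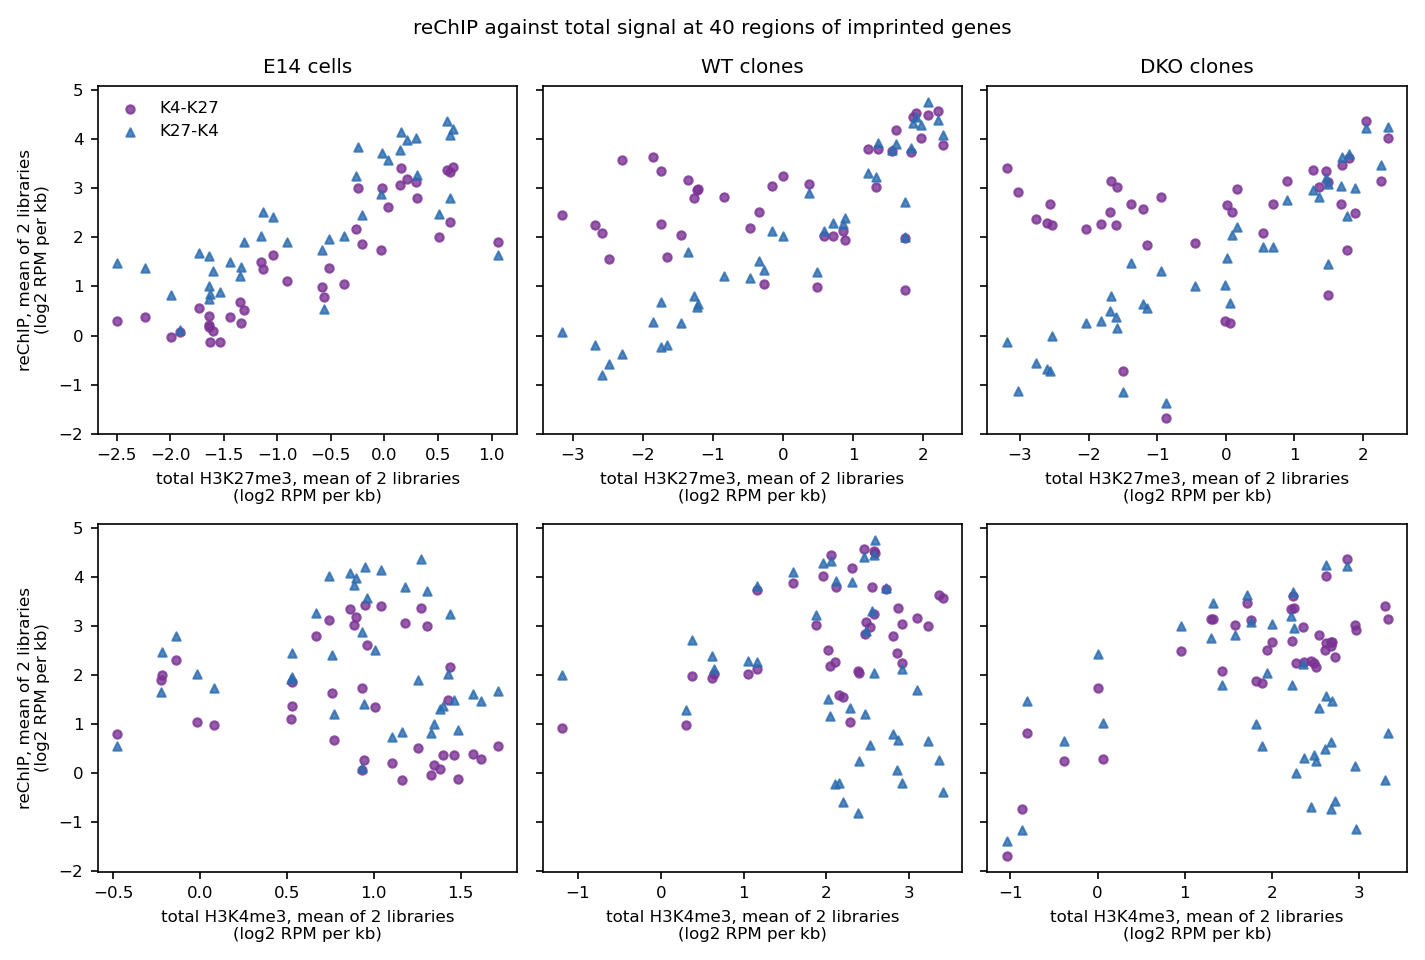
Log2 RPM per kb, as the mean of 2 libraries, of the reChIPs (y axis) against a total (x axis) at the 40 distinct regions of members, in each of the 3 sets. K27-K4 rises with total H3K27me3 in each set, with Spearman's rho of 0.805, 0.943 and 0.91.

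Each reChIP was then tested against the in-line total of its first antibody with limma over the 81533 regions of the E14 tables, where a call is a log2 difference over 1 with a Benjamini-Hochberg adjusted p under 0.05. The lower signal to noise of the in-line totals enters each of these differences. For K27-K4 against total H3K27me3, 40 of 42 members were higher in E14 cells, 30 in WT and 32 in DKO clones, and none lower. The same call was made at 90% of the kept regions of all 17706 genes in E14 cells, 49.6% in WT and 65.4% in DKO clones, and at 50.1%, 18.3% and 25.2% of all regions. A lower value was called at 0.582%, 0.0791% and 0.0678% of all genes' kept regions. The medians of members were 3.07, 2.03 and 1.86, beside 3.1, 1.73 and 1.74 over all genes. In E14 cells the members' count was thus near that of all genes, and the 2 members without a call were H19 and Rasgrf1. H19 differed by 1.11 ± 0.62 (SE) and Rasgrf1, a guanine nucleotide exchange factor, by 0.59 ± 0.76 (SE) at its region beside the start site. Leaving out single libraries of the totals lowered the counts. Without total H3K27me3 of E14 replicate 1 or 2 there were 9 or 3 calls, beside 30.1% and 10.9% of all genes' kept regions. In WT clones there were 11 and 6 without total H3K27me3 of clone 57 and 58 (16.8% and 14.9%) and 19 without K27-K4 of clone 57 (37.4%). The counts thus fell over all genes as well.

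For K4-K27 against total H3K4me3 in E14 cells, 9 of 42 members were higher (21.4%), beside 9.22% of the kept regions of all genes and 3.56% of all regions, and none was lower (0.0113% of all genes' kept regions). They were Ascl2, Cdkn1c, Dio3, Dlk1, Grb10, Magel2, Ndn, Peg12 and Sfmbt2. Dio3 differed by 2.48 ± 0.36 (SE) with an adjusted p of 0.0237, Magel2 by 2.48 ± 0.44 (SE) (0.0298), Cdkn1c by 2.37 ± 0.34 (SE) (0.0237) and Sfmbt2, a Polycomb-group gene, by 1.88 ± 0.41 (SE) (0.0477). Commd1, at the other end, differed by -1.61 ± 0.84 (SE), which did not pass (0.257). The median of members was 0.83, beside -0.21 over all genes. With the replicate as a block there were 15 calls (22.4% of all genes' kept regions). Without total H3K4me3 of either replicate the calls were lost among members and all genes alike, in fits that leave 1 sample in a group. The members' median was then 0.64 without replicate 1 (-0.41 over all genes) and 0.95 without replicate 2 (-0.01). It was 1.07 without K4-K27 of replicate 1 (0.44 over all genes) and 0.23 without K4-K27 of replicate 2 (-0.86). There were 0 calls without the variance trend and robust estimation (0% of all genes' kept regions), and 0 when the region was taken from the reChIP tables first.

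In WT clones 0 members passed for K4-K27 against total H3K4me3 in limma, with 7 higher at an unadjusted p under 0.05 (6.56% of all genes' kept regions), and the call was made at 0.0113% of all genes' kept regions and 0.0209% of all regions, with 0% lower among the former. With clone as a block 13 members were higher and 1 lower, beside 13.3% and 0.412% of all genes' kept regions in the same fit. In DKO clones 3 members were higher (Dio3, Igf2 and Peg12) beside 4.37% of all genes' kept regions and 3.45% of all regions, with 0.0678% lower among the former, and 12 were higher with clone as a block, where 13.2% of all genes' kept regions were. Igf2 differed by 1.74 ± 0.44 (SE) there with an adjusted p of 0.0343. Without total H3K4me3 of clone 43 or 53 none of these 3 calls was made, and nearly all calls over all genes were lost too, in fits that leave 1 sample in a group. Without K4-K27 of clone 53 the members' median was 0.85 in place of 0.26, beside 0.37 in place of 0.06 over all genes. The interaction of genotype with either difference gave 0 member calls in limma, and 0% among the kept regions of all genes. At an unadjusted p under 0.05, 1 member was lower for K4-K27 and 2 for K27-K4, beside 0.441% and 2.28% of all genes' kept regions. With clone as a block there were 2 and 10 lower at that p, beside 1.24% and 12% of all genes' kept regions, and 1 higher for K4-K27, still with 0 member calls.

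Among the 12 gDMR promoter members with an E14 region, 0 were called for K4-K27 against total H3K4me3 in any set, with 1, 0 and 1 at an unadjusted p under 0.05 in E14, WT and DKO cells, where 23.1%, 6.56% and 15.7% of all genes' kept regions were higher and 1.71%, 0.796% and 1.16% lower at that p. Their median differences were 0.33, 0.32 and 0.08, beside -0.21, 0.15 and 0.06 over all genes. K27-K4 against total H3K27me3 was called higher at 12, 11 and 9 of them, beside 90%, 49.6% and 65.4% of all genes' kept regions, so that the E14 count is near that of all genes. Of the members in domains silenced in cis by a non-coding RNA, 7 of 8 had a region. In E14, WT and DKO cells 2, 0 and 0 of them were called for K4-K27, beside 9.22%, 0.0113% and 4.37% of all genes' kept regions, and 7, 4 and 6 for K27-K4. All 6 members of the Prader-Willi and Angelman region had a region, with 3, 0 and 1 calls for K4-K27 and 6, 4 and 5 for K27-K4. Of the Dlk1-Dio3 cluster 3 of 6 had a region, with 2, 0 and 1 calls for K4-K27 and 3, 1 and 2 for K27-K4.

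**Figure D3:**
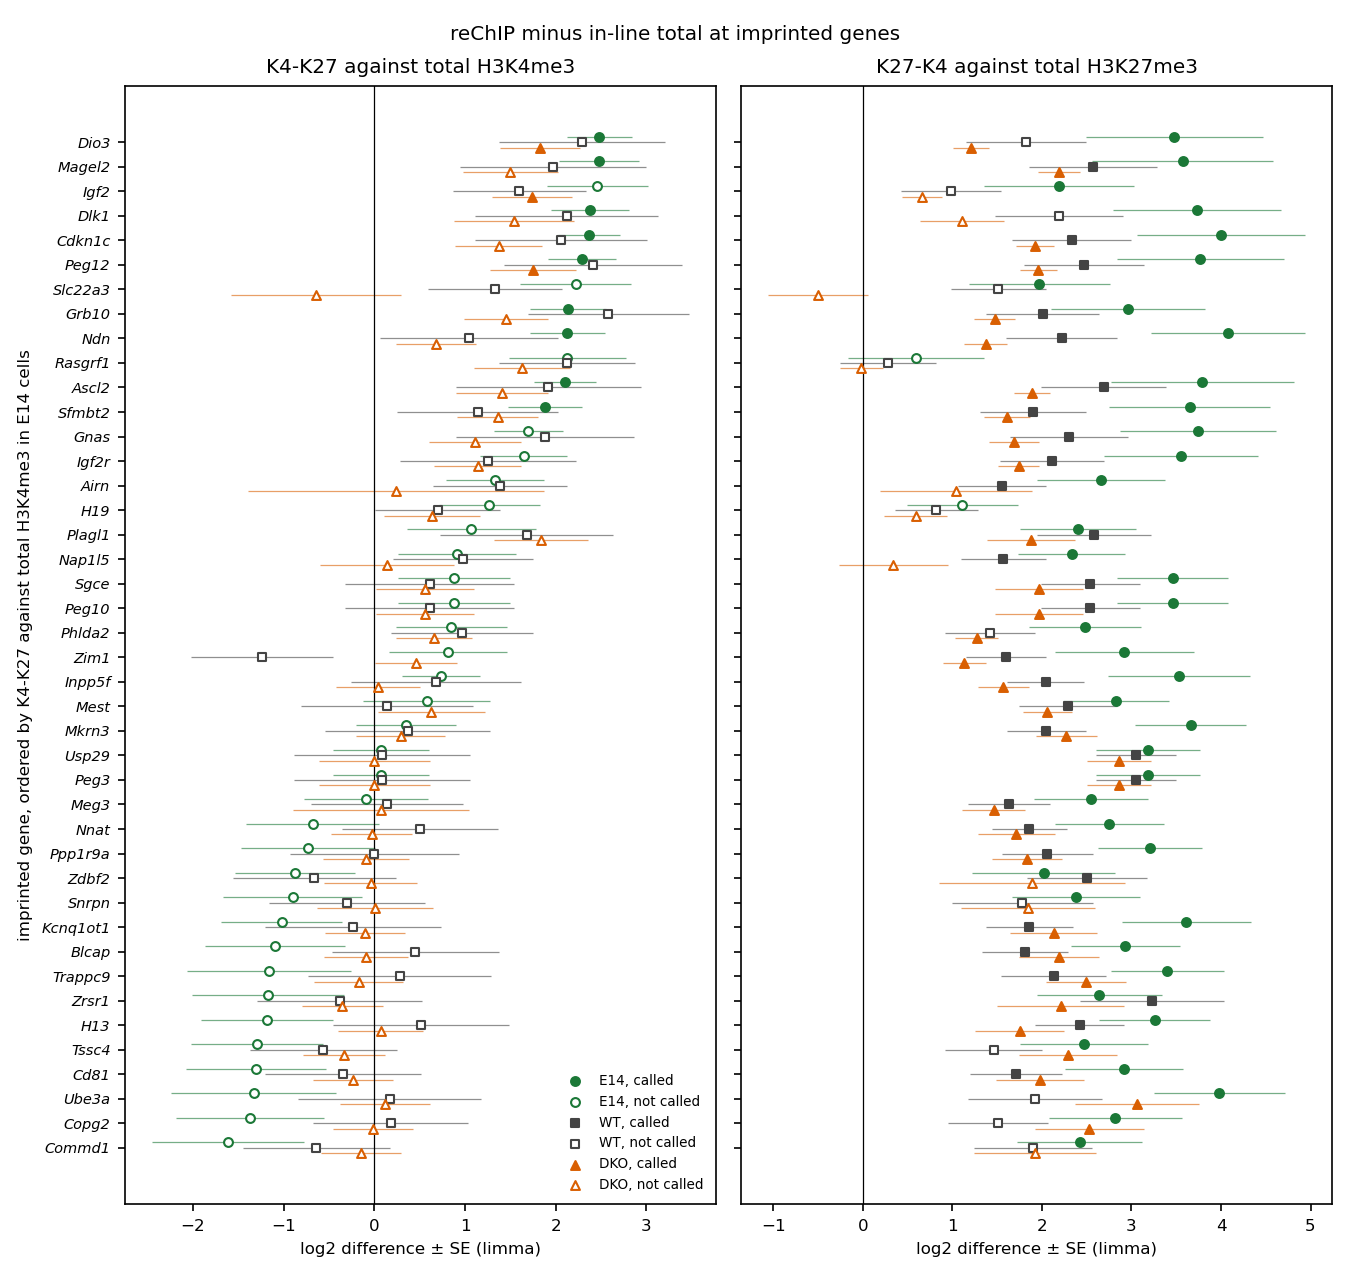
Log2 difference of reChIP and in-line total (x axis, limma estimate with SE as bars) for each of the 42 members (y axis) in E14 cells, WT clones and DKO clones, with filled symbols for calls. For K4-K27 the filled E14 symbols are 9 members in the upper part of the order, and for K27-K4 filled symbols run over nearly the whole list in E14 cells, 40 of 42.

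DKO clones were compared with WT clones at the regions of the clones' own tables, where reChIP regions were held by 43 (K4-K27) and 29 members (K27-K4) and regions of the totals by 42 (H3K4me3) and 18 (H3K27me3). In all, 4 members were called lower in DKO clones in at least 1 ChIP: Slc22a3, Nap1l5, Nnat and Airn. None was called higher, where 0%, 0.251%, 0% and 0.0397% of the kept regions of all genes were higher in total H3K4me3, total H3K27me3 and the reChIPs in either order. By ChIP, 2 members were lower in total H3K4me3 (4.76%, beside 2.6% of all genes' kept regions and 2.47% of regions), 2 in K4-K27 (4.65% beside 2.04% and 1.19%) and 3 in K27-K4 (10.3% beside 5.18% and 2.24%). In total H3K27me3 limma called 0 of 18 members and 0 were under an unadjusted p of 0.05, where 2.5% of all genes' kept regions and 1.78% of regions were called lower. The median difference of members was -0.43 for the reChIP that starts with H3K4me3 and -0.49 for the reverse, beside -0.07 and -0.17 over all genes. In the totals it was -0.12 (H3K4me3) and -0.08 (H3K27me3), beside 0.07 and 0.11. These medians moved with single libraries, as did those over all genes. For K4-K27 the members' median was 0.06 without DKO clone 53 (0.26 over all genes), -0.09 without WT clone 57 (0.27), -0.71 without WT clone 58 (-0.43) and -0.89 without DKO clone 43 (-0.4). For K27-K4 it was -0.28 without WT clone 57 (0.12) and -0.82 without WT clone 58 (-0.47). For total H3K4me3 it was 0.53 without WT clone 57 (0.71), -0.74 without WT clone 58 (-0.58), -0.35 without DKO clone 43 (-0.12) and 0.15 without DKO clone 53 (0.27). For total H3K27me3 it was 0.26 without WT clone 57 (0.37), -0.46 without WT clone 58 (-0.17), -0.2 without DKO clone 43 (0.05) and 0.08 without DKO clone 53 (0.17). The direction of the medians of both totals and of K4-K27 thus turned with 1 library left out. Leaving out single libraries also moved the counts of calls, both among members and over all genes. Such a fit leaves 1 sample in a group, so these counts say little about the members.

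Slc22a3, an organic cation transporter gene that Airn silences in cis in the placenta, had the largest differences among members in the 3 ChIPs in which the clones' tables hold it. In K27-K4 (chr17:12505801-12509400) the enrichment was 4.22 and 3.31 in WT clones, from 673 and 387 reads, and -0.6 and -0.64 in DKO clones, from 35 and 25 reads. In K4-K27 (chr17:12506251-12508500) it was 3.74 and 3.12 in WT and -0.32 and -2.39 in DKO clones, where 17 and 5 reads were left. In total H3K4me3 (chr17:12506551-12508050) it was 2.43 and 1.04 in WT and -1.14 and -0.97 in DKO. Both DKO clones were thus below IgG–IgG and below both WT clones in each of these ChIPs. The difference was -4.39 ± 0.46 (SE) in K27-K4 (adjusted p 5.21e-11, limma), -4.78 ± 0.86 (SE) in K4-K27 (2.07e-05) and -2.79 ± 0.55 (SE) in total H3K4me3 (1.69e-04). The K27-K4 call was made under all 11 alternatives, with differences from -4.84 to -3.94. The K4-K27 call was lost without WT clone 57 (-4.48, adjusted p 0.0894), and the total H3K4me3 call without DKO clone 43 (-2.71) or 53 (-2.88), which leaves 1 DKO library. Total H3K27me3 at the E14 region (chr17:12503251-12509550) was 1.43 and 0.79 in WT and -0.84 and -0.45 in DKO clones, where the clones' own tables hold no region and no test was made. In E14 cells it was 1.03 and 0.94, with K27-K4 of 2.25 and 3.67.

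Nap1l5, a paternally expressed nucleosome assembly protein gene with a gDMR at its promoter, had K27-K4 (chr6:58906051-58908450) of 2.55 and 2.32 in WT and -1.3 and -1.16 in DKO clones. In K4-K27 (chr6:58906051-58908000) it had 2.1 and 2.1 in WT and -1.22 and 0.01 in DKO, and in total H3K4me3 (chr6:58906201-58907700) 1.87 and 0.59 in WT and -0.77 and -1.39 in DKO. Both DKO clones were below both WT clones in all 3. The difference was -3.66 ± 0.57 (SE) in K27-K4 (adjusted p 2.35e-06), called under all 11 alternatives, and -2.31 ± 0.53 (SE) in total H3K4me3 (0.00203). The latter call was lost without WT clone 57 (-1.67), DKO clone 43 (-2.62) or DKO clone 53 (-2.0). In K4-K27 the difference of -2.71 ± 0.83 (SE) did not pass (adjusted p 0.079). Slc22a3 and Nap1l5, which has the 2 TGCCGC matches shown above, were the members without a region in any table of the DKO clones and with one in 3 tables of the WT clones.

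At Nnat and Airn, DKO clone 53 stood apart. Nnat encodes a small membrane proteolipid, is paternally expressed and lies in an intron of Blcap. Its K27-K4 (chr2:157557901-157562400) was 2.56 and 2.2 in WT and 1.55 and 0.01 in DKO clones, a difference of -1.6 ± 0.44 (SE) with an adjusted p of 0.0306. The call was lost without WT clone 57 (-1.42), DKO clone 43 (-2.37) or DKO clone 53 (-0.83). It was also lost after centring on medians, without the trend and in a fit of all libraries, and was kept in 5 of 11 alternatives. In K4-K27 Nnat had 3.27 and 2.62 in WT and 2.84 and -0.41 in DKO, and in total H3K4me3 2.03 and 0.92 in WT and 1.45 and -0.45 in DKO, so that clone 43 lay between the WT clones in both. Airn, the non-coding RNA that starts in an intron of Igf2r, had K4-K27 (chr17:12741001-12742950) of 4.6 and 4.06 in WT and 4.41 and -0.39 in DKO clones. Clone 43 was thus within the WT values and clone 53 below IgG–IgG. The difference of -2.32 ± 0.61 (SE) (adjusted p 0.0172) became 0.07 without clone 53, and the call was also lost without WT clone 57 (-2.05) or 58 (-2.59). Centring on medians and a fit of all libraries lost it too, so that it was kept in 6 of 11 alternatives. Clone 53 was also lowest at Airn in total H3K4me3 (3.16 and 2.57 in WT, 3.26 and 0.88 in DKO), in total H3K27me3 (2.88 and 2.39 in WT and 3.07 and 0.99 in DKO) and in K27-K4 (4.9 and 4.17 in WT and 4.51 and 2.1 in DKO). A change in 1 clone and an effect of genotype cannot be told apart at these promoters.

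**Figure D4:**
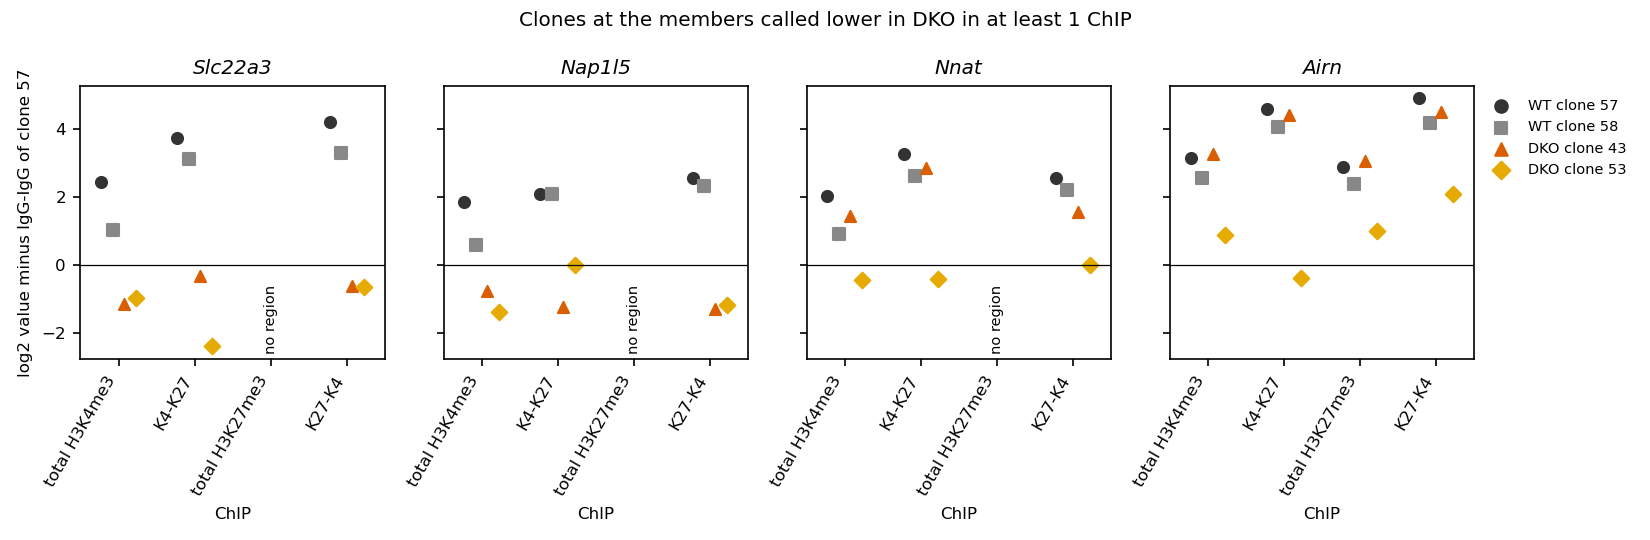
Log2 enrichment over the IgG–IgG of clone 57 (y axis) of each clone (57 and 58 are WT, 43 and 53 DKO) in each ChIP (x axis) at Slc22a3, Nap1l5, Nnat and Airn, each at the region of the clones' tables. At Slc22a3 both DKO clones are below IgG–IgG in the 3 ChIPs shown, and at Airn clone 43 lies with the WT clones while clone 53 is at -0.39 in K4-K27.

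Across members, both DKO clones were below both WT clones at 4 of 42 in total H3K4me3 (12.6% of all regions), 1 of 18 in total H3K27me3 (18.5%), 9 of 43 in K4-K27 (19.2%) and 15 of 29 in K27-K4 (30.8%). They were above both WT clones at 0, 0, 2 and 1 members, beside 17.9%, 26%, 19.7% and 21.1% of regions. The WT clones themselves differed in level: the median enrichment of the 42 members in total H3K4me3 was 3.03 in clone 57 and 1.78 in clone 58, and 2.37 and 1.77 in DKO clones 43 and 53. In K27-K4 these medians were 2.84, 2.26, 2.17 and 1.39. Clone 53 was the lowest of the 4 in K4-K27 as well (2.33, beside 3.23, 2.62 and 3.18). How much these levels contributed to the differences at single members was not tested.

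Igf2r, Cdkn1c and the other members with both totals in every set had no call between genotypes. Igf2r, which encodes the receptor that clears IGF2 and holds the Airn start in an intron, differed by -0.13 ± 0.48 (SE) in K27-K4 (adjusted p 0.89) and Cdkn1c by -0.4 ± 0.52 (SE) (0.676). Of the members with both totals in every set, Grb10 had the most negative difference in K27-K4 (chr11:12019201-12030150), with 3.2 and 2.81 in WT clones above 1.86 and 1.45 in DKO clones, a difference of -1.34 ± 0.45 (SE) with an adjusted p of 0.0976. H19, the maternally expressed non-coding RNA beside Igf2, differed by -1.34 ± 0.53 (SE) in total H3K4me3 (0.198) and had a region there in the WT table and none in the DKO table. Dlk1 differed by -1.52 ± 0.59 (SE) in K4-K27 (0.178). None of these passed.

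Lists of other genes gave the setting. These lists, like the members, were chosen with earlier results known. Of 32 other imprinted genes, 27 had an E14 region, and their K4-K27 was called above total H3K4me3 in E14 cells at 6, beside 9.22% of all genes' kept regions. In DKO clones 1 of the 20 with a K27-K4 region was called lower, beside 5.18% of all genes' kept regions. It was Kcnq1, the potassium channel gene whose intron holds the Kcnq1ot1 promoter. The 9 genes of imprint maintenance, among them Dnmt1 and Zfp57, had a median total H3K27me3 of -1.43 in E14 cells, and limma called 0 between genotypes among the 9 with a region in total H3K4me3, 9 in K4-K27, 3 in K27-K4 and 1 in total H3K27me3. Only the 1 gene tested in total H3K27me3 had an unadjusted p under 0.05. Promoters of the 8 ESC markers had median total H3K4me3 of 1.87, 2.37 and 2.63 and total H3K27me3 of -1.31, -1.69 and -2.41 in E14, WT and DKO cells. The 12 markers of other cell types, 11 with a region, had median total H3K27me3 of 0.72, 1.54 and 1.49, total H3K4me3 of 1.29, 1.95 and 1.88 and K27-K4 of 3.62, 2.91 and 3.0. By their medians the promoters of ESC markers thus had less total H3K27me3 than those of other cell types in all sets. Esrrb, an ESC marker, departed from this, with mean total H3K27me3 of 1.65, 1.63 and 1.24 and K27-K4 of 5.03, 3.51 and 3.24. Total H3K4me3 at Dppa2 and Dppa4 differed by 0.37 ± 0.58 (SE) and 0.10 ± 0.74 (SE) between DKO and WT clones, with no call, and a promoter ChIP does not check the knockout itself.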

How the data were processed

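ChIP and reChIP libraries of E14 cells (9) and clones (17) were used, 26 in all. Per the study's methods, reads were trimmed with Trim Galore 0.6.6, aligned to mm10 with BWA 0.7.13, and peaks were called with EPIC2 in each replicate against IgG–IgG. Whether the regions of the deposited tables come from those calls is not given in the sources used here: 100% of them start and span in steps of 150 bases, a step that the methods do not name. The deposited values are log2 RPM per kb of region from SeqMonk, in which duplicates were kept and IgG–IgG was not subtracted. In each library 100% of values were within 0.02 reads, or 0.02% where that is more, of a whole number of reads (0 had been entered as 0.9). Another 32 columns belonged to no sample here and were not used. The values are log2, so limma 3.58.1 in R 4.3.3 was the test (trend, robust, Benjamini-Hochberg adjustment over all regions of the union of tables, called at an absolute log2 difference over 1 and an adjusted p under 0.05). The authors' csaw counts and edgeR test were not used. Python 3.11.15 with pandas 2.3.3 made the other tables.

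Regions with the same coordinates in several tables were tested once, and overlapping regions count separately. A member's region in the E14 tables was taken from the first table that held one, in the order total H3K4me3 (30 members), total H3K27me3 (2), K4-K27 (9) and K27-K4 (1). Named members are those called between genotypes, the 3 highest and 3 lowest in mean reChIP minus total, the gDMR promoters, and Igf2, Magel2, Dio3 and Slc22a3. Members and lists were chosen with earlier results of these data known. Promoter windows came from RefSeq, with no entry used for H19, Cdkn1c, Peg10, Sgce, Impact, Peg13, Trappc9 and Rtl1.

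Replicate numbers pair the samples, since an in-line total is an aliquot of the tube of its reChIP, E14 numbers mark a sequencing batch and clone numbers a cell line. Deviations of reChIP and total from their group means correlated at 0.41 (K4-K27) and -0.15 (K27-K4) in E14 cells, 0.29 and 0.11 in WT and 0.11 and 0.18 in DKO clones. E14 replicates were passages on separate days, and each genotype has 2 clones, so p-values rest on the spread between 2 samples a group. On simulated data a version of the check with unmoderated spreads recovered no shifted region, and one with limma's moderated spreads recovered part of them and few in the interaction of genotype with K4-K27, where 0 calls say little. Alternatives were another order of tables, windows of 0.5 and 5 kb, centring on medians, no trend, low values left out, all libraries in one fit, replicate blocks, the other IgG–IgG library and leaving out each library.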

Additional observations from a re-analysis of the deposited data

Results flagged for a closer look

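At Slc22a3, K27-K4 minus total H3K27me3 was lower in DKO than in WT clones by 2.01 on the log2 scale, given as -2.01, with 1.66 and 1.37 in WT clones 57 and 58 and -0.13 and -0.86 in DKO clones 43 and 53. Every WT pair was positive and every DKO pair negative. In DKO clones both ChIPs were below IgG–IgG at this region, with means of -1.14 (K27-K4) and -0.64 (total H3K27me3). The DKO differences thus lie between background values. The interaction in limma had an unadjusted p of 0.0056 and an adjusted p of 0.666, so it did not pass. Against E14 cells the same quantity differed by -2.47, with 1.21 and 2.72 in E14 replicates, and this difference was not tested.

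At Nnat, K4-K27 minus total H3K4me3 was 1.17 higher in WT clones (0.09 and 0.90) than in E14 cells (-1.27 and -0.09), with opposite signs in the sets. The region read in both sets (chr2:157557901-157568250) also spans the start of Blcap, so the value adds both promoters. This difference was not tested, and E14 cells and WT clones each have their own IgG–IgG library.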

How the results depend on the processing

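For members called between genotypes, total H3K4me3 gave 2, with 5 after centring on medians (5.31% of all genes' kept regions lower in the same fit), 1 with low values left out (1.15%) and 0 to 8 when each library was left out (8 without WT clone 58). K4-K27 gave 2, with 4 in a fit of all libraries (4.88%) and 0 to 3 without single libraries, and K27-K4 gave 3, with 2 to 11 (11 without WT clone 58). Slc22a3 and Nap1l5 in K27-K4 kept their calls in all 11 alternatives, while Airn in K4-K27 went from -2.32 to 0.07 without DKO clone 53 and to -4.72 without DKO clone 43. For K4-K27 against total H3K4me3 in E14 cells, the count of 9 became 0 with reChIP tables first, 0 without trend and 15 with the replicate block (22.4%), and 0 to 30 without single libraries, where the 30 are 16 higher and 14 lower (without K4-K27 of replicate 2) and the other counts given are higher only. In WT clones the count of 0 became 5 after centring (4.79% of all genes' kept regions higher), 6 in a fit of all libraries (5.31%) and 14 with the block (13 higher, 1 lower; 13.3% and 0.412%), and stayed at 0 when any library was left out. In DKO clones the count of 3 became 5 with reChIP tables first, 0 after centring (0.0282%), 0 without trend, 8 with low values left out (9.79%), 0 in a fit of all libraries (0.0395%) and 12 with the block (13.2%), and 0 to 18 without single libraries. For K27-K4 against total H3K27me3, 40 in E14 cells ran from 3 to 41 without single libraries, 30 in WT clones from 6 to 34 with 10 after centring (16.1%), and 32 in DKO clones from 28 to 31. The replicate block gave 37, 32 and 35 (82%, 51.2% and 69.9%), and crossing the numbers in E14 cells, a choice made after seeing the data, gave 40. The block changed no interaction count from 0, with 10 members in place of 2 lower for K27-K4 at an unadjusted p under 0.05 (12% in place of 2.28% of all genes' kept regions). Counts without single libraries rest on 1 sample in a group, and the counts over all genes moved in most such fits too.

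With a window of 0.5 kb, 7 members had a total H3K27me3 region in E14 cells in place of 14. The median enrichment of members in total H3K27me3 of DKO clones turned to 0.05 with the other IgG–IgG, 0.31 with reChIP tables first and 0.16 without clone 53 (range -0.30 to 0.16). With reChIP tables first the medians were -0.18 for total H3K27me3 and 1.04 for total H3K4me3 in E14 cells, and 2.09 for K27-K4 and 2.48 for K4-K27 in WT clones, and the other IgG–IgG gave 0.97 for total H3K4me3 in E14 cells. Leaving out single libraries gave medians of 1.39 to 2.17 (K27-K4), 2.33 to 3.18 (K4-K27) and 1.77 to 2.37 (total H3K4me3) in DKO clones. In WT clones they were 2.26 to 2.84, 2.62 to 3.23, 0.28 to 1.00 (total H3K27me3) and 1.78 to 3.03, and in E14 cells 2.07 to 2.95, 1.46 to 2.29, -0.44 to -0.38 and 1.17 to 1.43. Among values of named members, 306 alternatives kept direction and call, 97 lost the call and 1 reversed. The causes were not tested.

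Groups of 2 samples limit these calls, 1 IgG–IgG library serves each set, and low read counts such as 5 reads at Slc22a3 in K4-K27 of clone 53 leave wide counting error. Reads carry no allele, so a reChIP and a total describe the sum of both copies.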
